A study of Mus musculus with 16 samples.

Results

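The genes described here are 10 members of the circadian clock, Arntl, Npas2, Per2, Per3, Cry1, Ciart, Nr1d1, Nr1d2, Dbp and Tef, taken by name from the 55385 genes of a count table of short-read RNA-Seq libraries. All 10 had counts in each of the 16 libraries, the lowest being 10 counts for Ciart in fed liver, and 9 of them reached 1 CPM (the counts of a gene scaled to the total of its library) everywhere. The libraries came from muscle, liver, white adipose tissue, brown adipose tissue, heart, spleen, kidney and lung of male C57BL/6 mice, with food freely available (fed) or withheld for 24 h (fasting). The mice arrived at 12 weeks of age, were acclimatized for 10 to 14 days and were sampled at 10 am, and the light schedule is not given in the sources used here. Equal parts from 3 mice were combined for each group ahead of RNA extraction, so every tissue has 1 fed and 1 fasting library and no value below has an error between mice. In such bulk tissue, fewer cells of a type and less RNA per cell cannot be told apart.

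The mammalian clock is a transcriptional loop. BMAL1 (the protein of Arntl) pairs with CLOCK or NPAS2 and activates genes through E-boxes, among them the Per and Cry genes, whose proteins return to block that activation, the Rev-erb receptor genes Nr1d1 and Nr1d2, whose proteins repress Arntl through RORE elements, and the PAR bZIP genes Dbp and Tef, whose proteins act on D-boxes. Transcripts of Arntl and Npas2 therefore peak at the opposite time of day from those of Dbp, Nr1d1 and Per genes, and feeding time is a known signal for the clocks of the liver and other peripheral organs. All libraries here come from a single time of day, so they show a level at that hour and neither a phase nor an amplitude.

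The library totals lay between 14245178 counts (fasting brown adipose tissue) and 36069968 counts (fasting lung), and 3 counts, the floor used here, were worth 0.0832 to 0.211 CPM. Lists of defining genes of the 8 tissues each summed highest in both libraries of their own tissue. Some libraries also held genes of other cells, unequally between fed and fasting. The 4 epithelial genes summed to 14.4 CPM in fed and 233 CPM in fasting white adipose tissue, with Epcam at 1.16 and 59.7 CPM. The 4 genes of pancreatic acinar cells summed to 319 CPM in fed and 11.4 CPM in fasting spleen, where the 3 erythroid genes went from 2950 to 7025 CPM. In lung, 4 B cell genes went from 157 to 78.0 CPM, 4 T cell genes from 54.0 to 14.8 CPM and 4 heart genes from 904 to 447 CPM. The 4 genes of fast muscle summed to 2001 CPM in fed and 942 CPM in fasting brown adipose tissue. Smaller sums moved in liver, kidney, muscle and heart. The acinar genes were at 71.2 and 127 CPM (fed and fasting) in liver, where Cpa1, Prss2 and Pnlip rose and Cela1 did not (37.5 and 34.7 CPM). In kidney they summed to 58.3 and 23.0 CPM, nearly all of it Cela1 (58.1 and 22.8 CPM). Cpa1, Prss2 and Pnlip were each at 0.116 CPM or less in kidney, so that sum does not show acinar cells there. In muscle 4 adipocyte genes were at 87.8 and 40.0 CPM, and in heart 4 liver genes at 23.2 and 83.5 CPM. The part of these cells in the values of the clock genes was not tested.

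Promoter sequence is shown first, because the clock acts on these genes through short motifs. RefSeq windows of the GRCm38.p6 build, from 250 bases before to 50 bases after the annotated start, were held for 9 of the 10 members (11 windows, since Arntl and Tef have a pair each). The member without a window was Per2, so its promoter was not searched. Both strands were searched for the E-box CACGTG, its variant CACGTT (the E-prime box), the D-box TTATGTAA or TTACGTAA and the RORE TAGGTCA or TGGGTCA, which do not overlap each other in the matches found. Of all 32851 windows, 7.15% held the E-box, 4.68% the E-prime box, 1.06% the D-box and 6.45% the RORE. The stretches with a match follow, 5′ to 3′ on the strand of the gene, with the motif in capitals (a capital AACGTG is the E-prime box read on the other strand).
Ciart, chr3:95882257-95882354, minus strand: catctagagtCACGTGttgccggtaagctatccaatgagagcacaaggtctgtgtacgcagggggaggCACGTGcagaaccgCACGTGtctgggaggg
Cry1, chr10:85185099-85185143, minus strand: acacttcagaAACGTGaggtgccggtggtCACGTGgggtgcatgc
Tef, first start, chr15:81802536-81802561, plus strand: gctgtggctcCACGTGctgcagctgg
Tef, second start, chr15:81811266-81811291, plus strand: cctggcccagCACGTGtctacatcgt
Nr1d1, chr11:98775390-98775415, minus strand: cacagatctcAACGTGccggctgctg
Per3, chr4:151044806-151044880, minus strand: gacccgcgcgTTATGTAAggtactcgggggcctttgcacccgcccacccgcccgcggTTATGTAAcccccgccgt
Arntl, second start, chr7:113207531-113207557, plus strand: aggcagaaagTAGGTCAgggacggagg

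The Ciart window held 3 E-boxes, which begin 116, 58 and 44 bases before the start, and 0.0883% of all windows (29 of 32851) held 3 or more. Per3 held the D-box at 205 and 158 bases before its start, and 0.0244% of all windows (8) held it more than once. Cry1 had an E-box at 60 and an E-prime box at 79 bases upstream, and Tef an E-box before each of its starts, at 127 and 138 bases. Nr1d1 had an E-prime box 28 bases upstream, and the second Arntl window a RORE 30 bases downstream of the start. None of these letters were found in the windows of Npas2, Nr1d2 and Dbp or in the first Arntl window, which says nothing of elements outside them. A match in such a window is a description and not a site of binding.

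**Figure D1:**
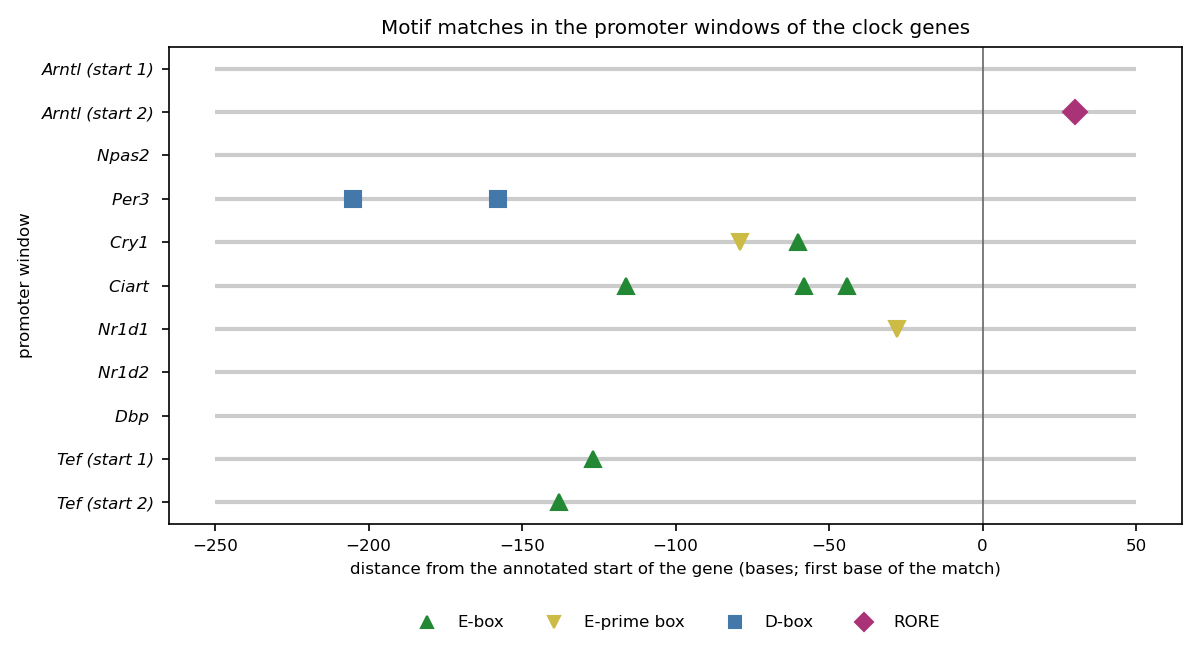
Position of each motif match in the promoter windows, as the distance in bases of the first base of the match from the annotated start (0); each grey line is 1 window from 250 bases upstream to 50 bases downstream, and symbols mark the kind of motif. The 3 E-boxes of Ciart and the 2 D-boxes of Per3 are the only motifs repeated within a member's window.

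How the members responded to fasting was asked first within each tissue. Each gene was compared between the fasting and the fed library by Fisher's exact test (two-sided) and called where its log2 fold change of CPM (with 0.01 CPM added) was above 0.5 in size at p under 0.01; this compares those libraries and not the conditions, and holds counting error only. Of the 80 pairs of a member and a tissue, 20 rose, 11 fell and 49 were not called. With a coefficient of variation of 0.2 assumed between pools, 8 rises and 5 falls were left: the 7 liver calls other than Per2, Per2 in heart, lung and both adipose tissues, and Dbp in muscle and brown adipose tissue. The liver stood at the head with 5 members that rose (Per2, Per3, Ciart, Dbp and Tef) and 3 that fell (Arntl, Npas2 and Cry1), where 4.46% and 9.52% of all genes with a count were called in these directions. In heart, 3 rose (Per2, Per3 and Tef) and 2 fell (Arntl and Dbp), against 4.33% and 5.80% of all genes. Brown adipose tissue had 4 that rose (Npas2, Per2, Per3 and Tef) and Dbp as the 1 that fell, against 5.39% and 7.58%. White adipose tissue had 3 that rose (Npas2, Per2 and Cry1) and again 1, Dbp, that fell, against 13.2% and 5.84%. Muscle had 1 that rose (Per2) and 3 that fell (Cry1, Nr1d1 and Dbp), against 4.42% and 9.39%. In lung 3 rose (Per2, Per3 and Tef) and 0 fell, against 2.68% and 6.49%. Kidney had 1 in each direction (Per2 up and Npas2 down), against 2.77% and 3.93%. The spleen had 0 calls either way, where 2.31% rose and 1.62% fell among all genes. Nearly all member values were at 1 CPM or more, and among the genes at that level in either library the shares were higher, 7.34% rising and 15.8% falling in liver, 7.80% and 16.4% in muscle, 19.8% and 9.23% in white adipose tissue, and 3.62% to 8.68% rising and 2.33% to 12.2% falling in the other tissues.

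The size of the change put the liver apart as well. The median size of the members' log2 fold change, whatever its sign, was 1.28 in liver, against 0.29 over the 14085 genes at 1 CPM or more in either liver library. It was 0.53 in brown adipose tissue (0.30 over all such genes), 0.52 in heart (0.26), 0.40 in white adipose tissue (0.32), 0.34 in muscle (0.31), 0.33 in lung (0.19), 0.28 in kidney (0.19) and 0.21 in spleen (0.14). Ciart in liver had the largest change of the 80 pairs, and only 29 of the 14085 liver genes had a larger log2 fold change. Of the 10 members, 9 were higher in fasting spleen, by small amounts, where 46.0% of all genes at 1 CPM or more in either library were higher. In fasting muscle 7 members were lower, near the share of all such genes there (63.5%).

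**Figure D2:**
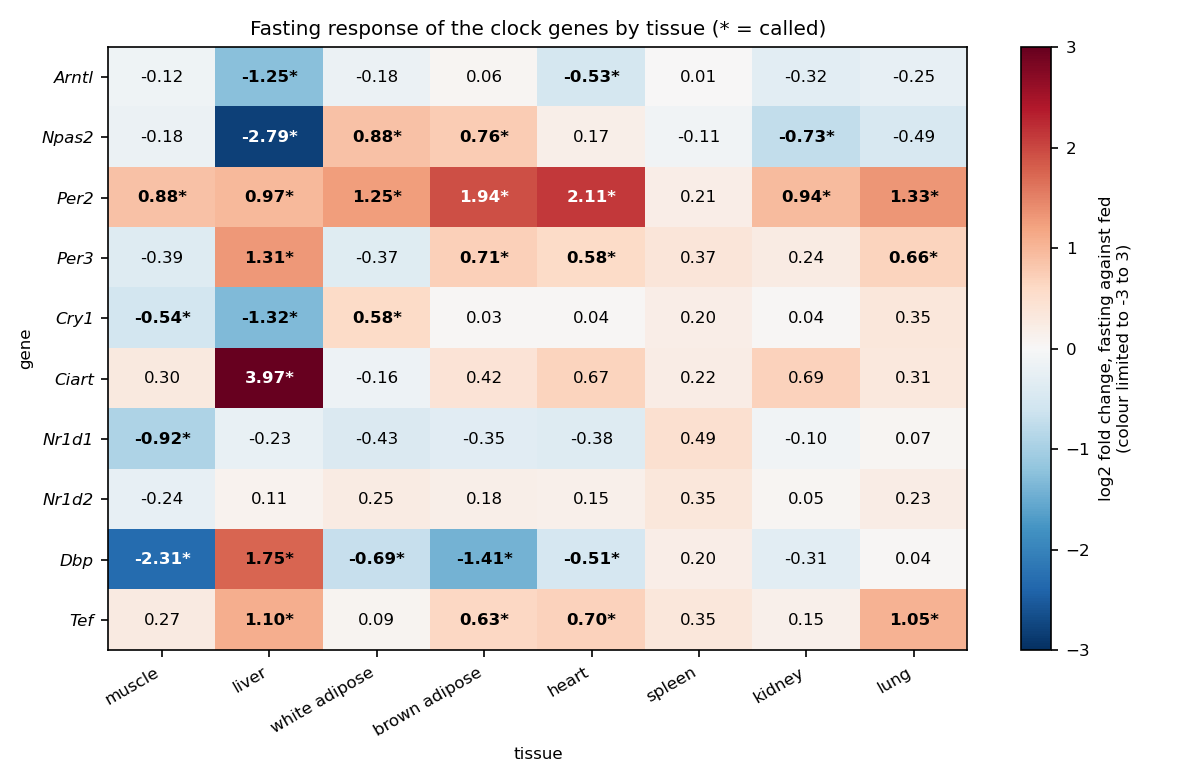
Log2 fold change of CPM, fasting against fed, for the 10 clock genes (rows) in 8 tissues (columns), each from 1 library per treatment; red is higher and blue lower in fasting, and asterisks mark the 31 called pairs. The Per2 row is above 0 in every tissue, whereas Dbp runs from -2.31 in muscle to 1.75 in liver.

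Which members moved the same way in most tissues was asked with 1 edgeR quasi-likelihood fit of all libraries, with tissue and treatment as terms (7 residual degrees of freedom). All 8 tissues were taken from the same mice, so the p-values measure the spread between tissues and not between animals. At a Benjamini-Hochberg adjusted p under 0.05, 2 members rose, Per2 and Tef, and 0 fell, where 2.31% of the 17296 genes rose and 2.08% fell. With DESeq2's Wald test 2 rose and 0 fell as well. At an unadjusted p under 0.05 in edgeR there were 5 members, Arntl (lower) and Per2, Per3, Nr1d2 and Tef (higher), where 10.6% of all genes in the fit were higher and 13.1% lower at that level. The median log2 fold change of the 10 members in this fit was 0.07, and that of all genes -0.01.

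**Figure D3:**
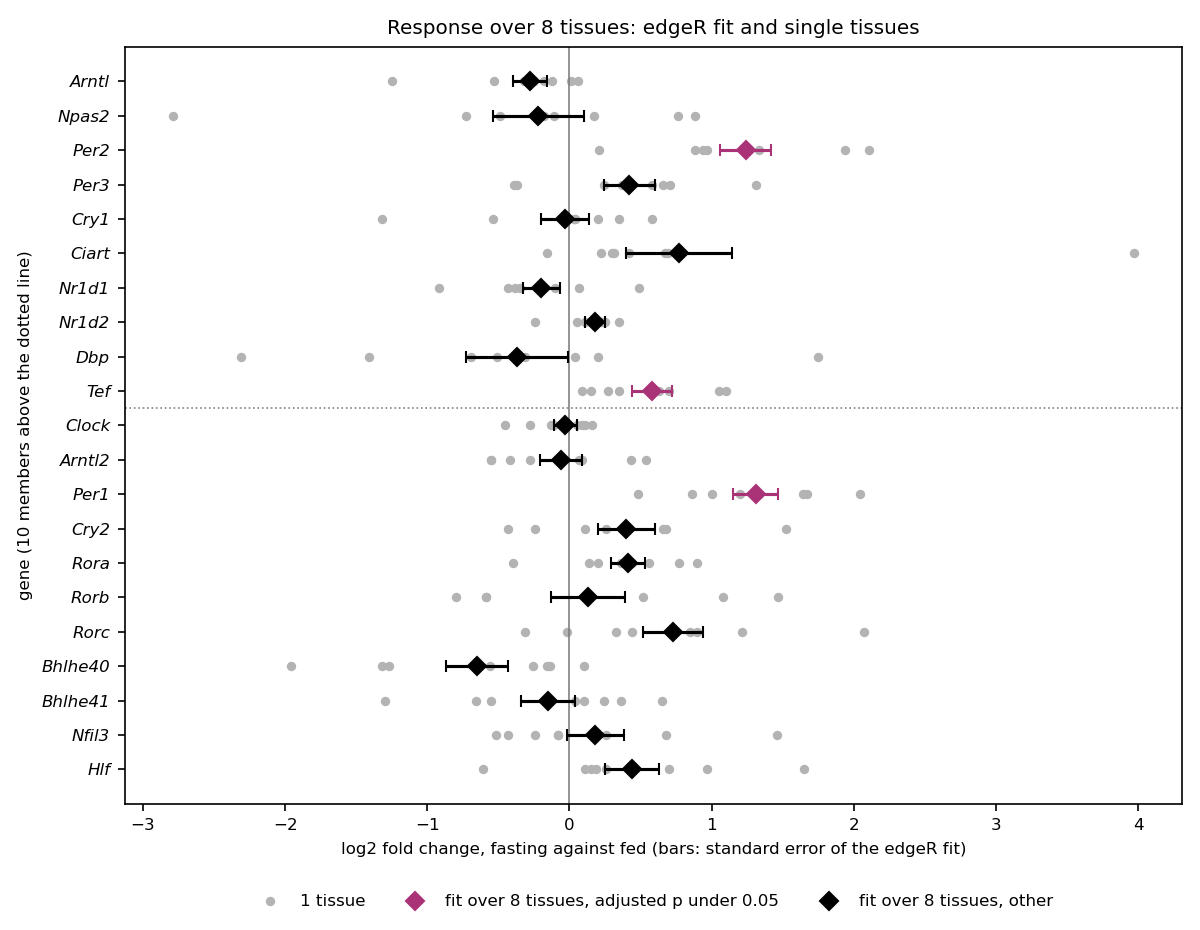
Log2 fold change, fasting against fed, of the 10 members (above the dotted line) and 11 other clock factors; grey points are single tissues, and diamonds with bars are the edgeR fit over 8 tissues with its standard error, coloured where the adjusted p is under 0.05. Per2, Tef and Per1 are past the threshold, and the single tissues of Npas2, Dbp, Cry1 and Ciart spread widely around their fitted values.

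Per2 (ENSMUSG00000055866.9, chromosome 1 from 91415982 to 91459324, minus strand), a repressor of the loop whose transcription also responds to signals from outside the clock, was higher in fasting in 8 of 8 tissues. Its level went from 7.61 CPM in fed to 32.8 CPM in fasting heart, from 15.8 to 60.7 CPM in brown adipose tissue, from 31.5 to 79.1 CPM in lung and from 25.4 to 60.2 CPM in white adipose tissue. It went from 14 to 27.5 CPM in liver, from 16.1 to 30.8 CPM in kidney, from 7.64 to 14.1 CPM in muscle and from 15.5 to 18.0 CPM in spleen. The fed and the fasting levels overlapped as groups, because fed lung (31.5 CPM) was above 4 of the fasting tissues, but every tissue moved up. The rise was 4.31-fold in heart, 3.83-fold in brown adipose tissue and 1.84-fold in muscle, and only spleen (1.16-fold, exact p = 0.0387) was not called. With a coefficient of variation of 0.2 assumed between pools, Per2 lost its calls in muscle, liver and kidney, and with 0.4 it lost all 7. Over all tissues the edgeR log2 fold change was 1.24 (standard error 0.18, adjusted p = 0.0101). Among all 17296 genes of the fit, 2.48% were higher in 8 of 8 tissues and 0.283% (49) were called up in 7 or more, as Per2 was.

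Per3 (ENSMUSG00000028957.12, chromosome 4 from 151003652 to 151044665, minus strand), a further member of the Per family, differed between tissues. It rose from 7.47 to 18.5 CPM in liver (2.47-fold), from 55.4 to 90.6 CPM in brown adipose tissue, from 62.1 to 98.3 CPM in lung and from 30.2 to 45.2 CPM in heart. In muscle (39.9 and 30.5 CPM) and white adipose tissue (124 and 95.9 CPM) the fasting value was the lower one, with log2 fold changes of -0.39 and -0.37 that were not called. Spleen and kidney had 0.37 and 0.24 and were not called either. Across tissues its log2 fold change was 0.42 (standard error 0.18, edgeR adjusted p = 0.196). Per3 lies within the locus of Camta1 on the same strand, with 0 shared exon bases.

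Cry1 (ENSMUSG00000020038.10, chromosome 10 from 85131700 to 85185064, minus strand), the strongest repressor of the loop, was called in 3 tissues and not in 1 direction. Its level fell from 16.3 to 6.53 CPM in liver (2.50-fold lower) and from 14.2 to 9.83 CPM in muscle, and rose from 8.24 to 12.3 CPM in white adipose tissue. The values in muscle and white adipose tissue were not called with TMM or DESeq2 factors. In the other 5 tissues the log2 fold change lay between 0.03 (brown adipose tissue) and 0.35 (lung). The edgeR value was -0.03 (standard error 0.17, adjusted p = 0.937), with -0.11 without white adipose tissue and 0.13 without liver.

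Ciart (ENSMUSG00000038550.10, chromosome 3 from 95878503 to 95882251, minus strand), also called CHRONO, encodes a repressor that binds BMAL1, and its window above holds the 3 E-boxes. It rose in the liver libraries from 10 to 174 counts, or 0.434 to 6.97 CPM. That was 16.1-fold, a log2 fold change of 3.97 with a 95% counting interval of 3.09 to 5.09. With a pseudocount of 1 CPM in place of 0.01 the log2 fold change of Ciart in liver was 2.47, still called. Elsewhere its log2 fold changes ran from -0.16 in white adipose tissue to 0.69 in kidney, and none of these 7 was called, although heart and kidney were with TMM or DESeq2 factors. By library totals its highest level was in lung, at 8.75 CPM in fed and 10.8 CPM in fasting. Both adipose tissues were low, with 13 to 20 counts per library, so a moderate change was not detectable there. Over all tissues it had 0.77 (standard error 0.37, edgeR adjusted p = 0.236), and 0.40 in that fit without the liver.

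Of the activators, Arntl (ENSMUSG00000055116.8, chromosome 7 from 113207465 to 113314126, plus strand) was lower in fasting in 6 of 8 tissues and was called in 2 of them. It fell from 32.6 to 13.7 CPM in liver (2.38-fold lower) and from 39.4 to 27.3 CPM in heart (1.44-fold lower), the latter not called with TMM or DESeq2 factors. The other tissues stayed within a log2 fold change of -0.32 to 0.06, with 25.1 and 20.1 CPM in kidney, 46.6 and 39.3 CPM in lung, 37.0 and 32.6 CPM in white adipose tissue, 38.6 and 35.4 CPM in muscle, 24.5 and 25.6 CPM in brown adipose tissue and 52.5 and 53.0 CPM in spleen (fed and fasting). By library totals, fasting liver was thus the lowest of the 16 libraries, below both kidney libraries. In edgeR's fit Arntl had -0.28 (standard error 0.12, adjusted p = 0.2), and -0.16 without the liver.

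Npas2 (ENSMUSG00000026077.15, chromosome 1 from 39193731 to 39363236, plus strand), the partner that can stand in for CLOCK, moved further and in both directions. It fell from 9.20 to 1.32 CPM in liver (6.96-fold lower, 212 and 33 counts) and from 15.5 to 9.39 CPM in kidney (1.66-fold lower). It rose from 9.27 to 17.0 CPM in white adipose tissue (1.84-fold) and from 4.09 to 6.95 CPM in brown adipose tissue (1.70-fold). With a pseudocount of 1 CPM in place of 0.01, the log2 fold change of Npas2 in liver went from -2.79 to -2.14. In lung it went from 13.9 to 9.90 CPM, a log2 fold change of -0.49 just short of the threshold, and muscle, heart and spleen had -0.18, 0.17 and -0.11. Fasting white adipose tissue was, by library totals, the highest and fasting liver the lowest of all libraries, 12.9-fold apart. Among the fed tissues, by the same totals, kidney was highest and spleen lowest, 5.33-fold apart. The edgeR value across tissues was -0.22 (standard error 0.32, adjusted p = 0.707). Leaving out 1 tissue at a time moved it from -0.39 (without white adipose tissue) to 0.06 (without liver), so its direction rests on the liver. The rise in white adipose tissue was measured where epithelial genes rose from 14.4 to 233 CPM and adipocyte genes went from 13721 to 10057 CPM. The part of these cells in it was not tested.

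The Rev-erb receptors were called in 1 of 16 pairs. Nr1d1 (ENSMUSG00000020889.11, chromosome 11 from 98767932 to 98775333, minus strand) fell from 116 to 61.2 CPM in muscle (1.89-fold lower), its only called tissue by library totals, while TMM or DESeq2 factors added white adipose tissue and spleen. This muscle call was lost with a coefficient of variation of 0.2 assumed between pools. It had -0.43 in white adipose tissue (128 and 95 CPM), -0.38 in heart, -0.35 in brown adipose tissue, -0.23 in liver, -0.10 in kidney, 0.07 in lung and 0.49 in spleen (11.1 and 15.6 CPM). By library totals, spleen was the lowest tissue by far in both states. Nr1d2 (ENSMUSG00000021775.11, chromosome 14 from 18204054 to 18239127, minus strand) was called in 0 tissues, and its log2 fold changes ran from -0.24 in muscle to 0.35 in spleen, the narrowest range of the 10 members. Its counts were 1618 to 4666 per library, so the 95% counting interval of each fold change was narrow, 0.02 to 0.19 around 0.11 in liver for example. Across tissues, edgeR gave -0.20 for Nr1d1 (standard error 0.13, adjusted p = 0.374, and -0.12 without muscle) and 0.18 for Nr1d2 (standard error 0.07, adjusted p = 0.145). Nr1d1 shares 263 exon bases, 8.55% of its own, with Thra on the opposite strand, and whether the counting used the strand is not stated. In muscle Thra went from 76.8 to 55.6 CPM (-0.47) where Nr1d1 had -0.92, and in brown adipose tissue Thra had 0.37 where Nr1d1 had -0.35.

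Dbp (ENSMUSG00000059824.12, chromosome 7 from 45705088 to 45710203, plus strand), a PAR bZIP activator and one of the most strongly cycling transcripts known, was called in 5 tissues and had the widest range between tissues after Ciart. It fell from 65.3 to 13.2 CPM in muscle (4.95-fold lower), from 22.7 to 8.56 CPM in brown adipose tissue (2.65-fold lower), from 35.8 to 22.2 CPM in white adipose tissue (1.61-fold lower) and from 34.3 to 24.1 CPM in heart (1.43-fold lower, not called with TMM or DESeq2 factors). In liver it rose from 10.3 to 34.5 CPM (3.36-fold). Kidney (43.7 and 35.1 CPM), lung (28.7 and 29.4 CPM) and spleen (19.3 and 22.2 CPM) were not called. Fed muscle was therefore, by library totals, the highest and fed liver the lowest fed tissue. With fasting, by the same totals, the muscle level went below that of the liver. The edgeR value was -0.37 (standard error 0.36, adjusted p = 0.565), and it ran from -0.66 without liver to -0.12 without muscle. In brown adipose tissue the genes of fast muscle went from 2001 to 942 CPM in the same libraries, and the brown adipocyte genes from 5029 to 4429 CPM. Their part in the fall of Dbp was not tested. Dbp shares 539 exon bases, 18.0% of its own, with Sphk2 on the opposite strand. Sphk2 moved by 0.07 in muscle (18.0 and 18.9 CPM), 0.26 in liver and -0.16 in brown adipose tissue, where Dbp had -2.31, 1.75 and -1.41. In white adipose tissue the values were closer, with Sphk2 going from 41.4 to 28.7 CPM (-0.53) beside -0.69 for Dbp, and in heart they were -0.11 and -0.51.

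Tef (ENSMUSG00000022389.15, chromosome 15 from 81802421 to 81826863, plus strand) is the other PAR bZIP member. It rose from 74.1 to 159 CPM in liver (2.14-fold), from 174 to 361 CPM in lung (2.07-fold), from 129 to 210 CPM in heart (1.63-fold) and from 151 to 234 CPM in brown adipose tissue (1.55-fold). Muscle went from 240 to 289 CPM, spleen from 76.3 to 97.0 CPM, kidney from 312 to 346 CPM and white adipose tissue from 164 to 175 CPM, and none of these was called. With a coefficient of variation of 0.2 assumed between pools, liver was the only call left. By library totals it was higher in fasting in 8 of 8 tissues, but white adipose tissue turned from 0.09 to -0.01 with TMM factors and to -0.02 with DESeq2's size factors. The edgeR value was 0.58 (standard error 0.14, adjusted p = 0.0436), close to the threshold. Leaving out 1 tissue at a time gave adjusted p-values of 0.0321 to 0.11 in edgeR, and Tef stayed past the threshold only without white adipose tissue. In brown adipose tissue and heart Dbp fell and Tef rose, and in liver both rose. In lung, B cell, T cell and heart genes were lower in fasting as given above, while the 4 lung genes stood at 22697 and 22842 CPM.

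**Figure D4:**
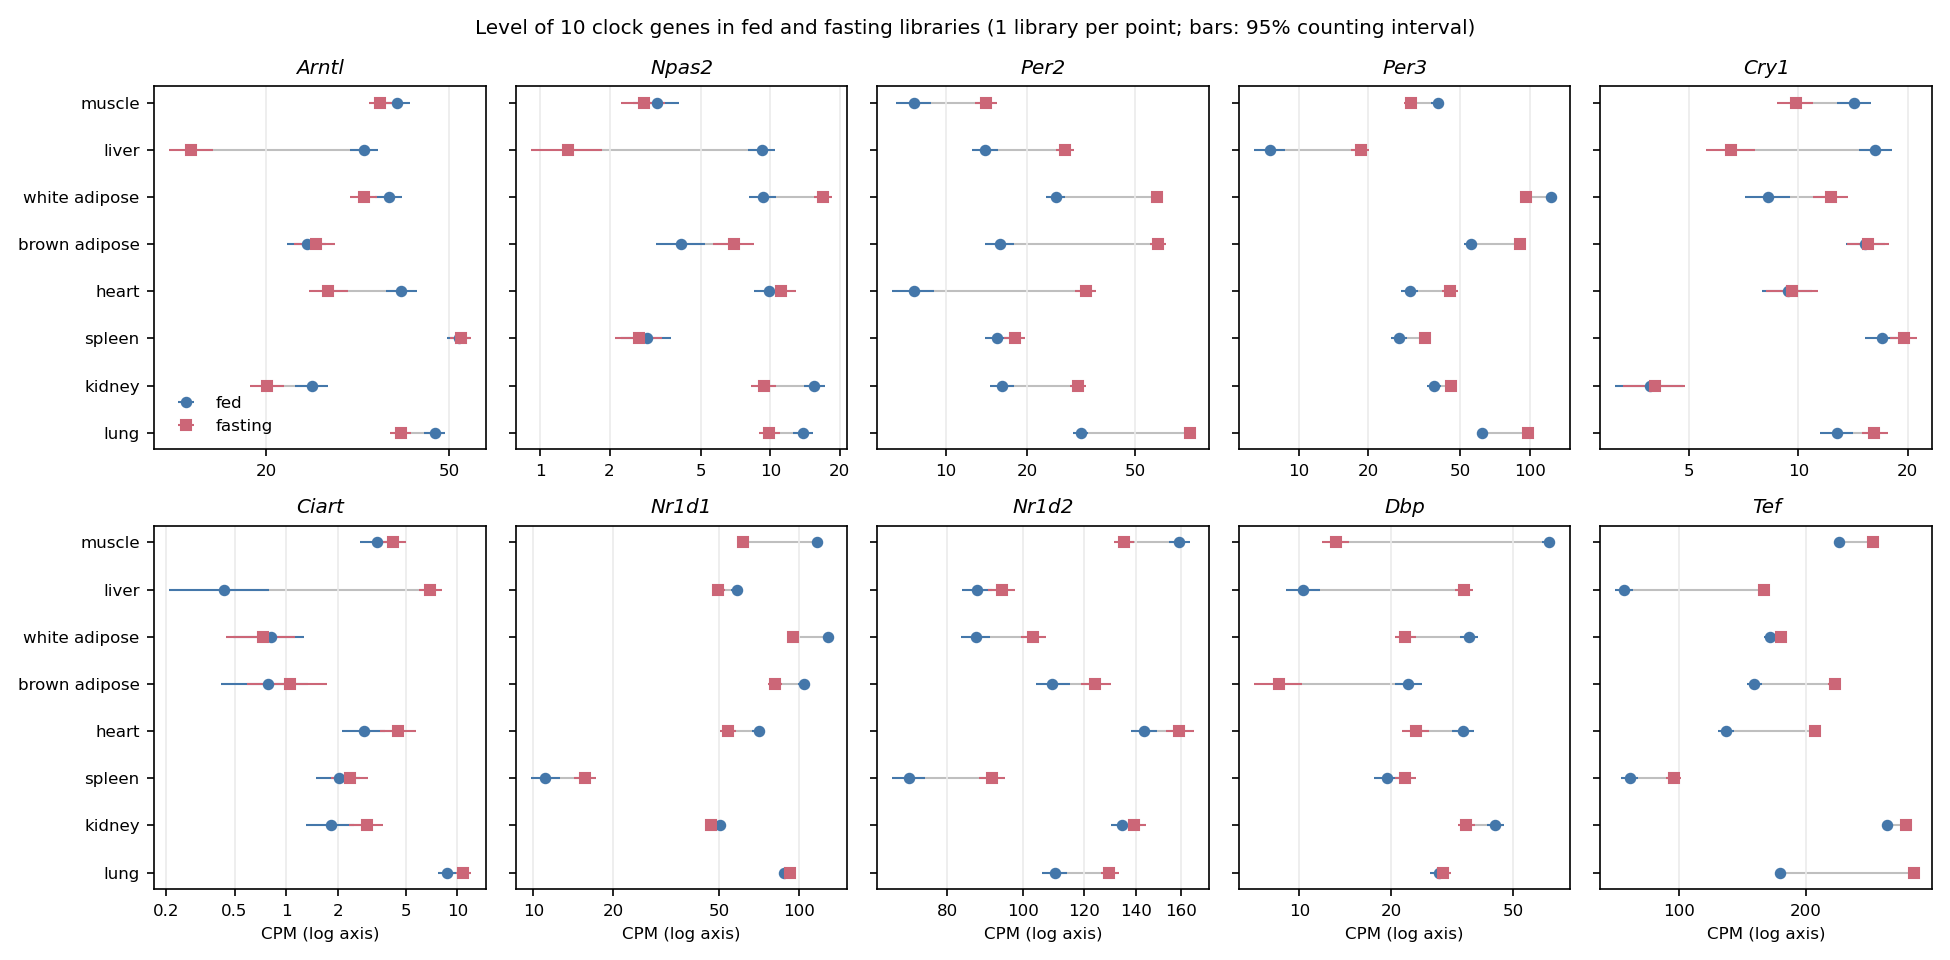
Level of each member in CPM (log axis, a separate scale for each gene) in the fed (circles) and fasting (squares) library of 8 tissues, with 95% Poisson intervals that cover counting error only; grey lines join the libraries of a tissue. Per2 lies to the right in fasting in every row, and Ciart, Npas2 and Arntl have their widest gap in liver.

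Levels in the fed libraries also differed between members and tissues. Per kilobase of exon, the median over the fed tissues was highest for the receptors and Tef, with 25.6 CPM per kb for Nr1d1, 20.2 for Nr1d2 and 20.0 for Tef. Dbp had 10.5, Arntl 5.02, Per3 4.08, Cry1 4.04, Per2 2.67, Npas2 1.93 and Ciart 0.853 CPM per kb. By library totals, Arntl and Nr1d2 were the most even, 2.14-fold and 2.23-fold apart between their highest and lowest fed tissue. Ciart (20.2-fold), Per3 (16.6-fold) and Nr1d1 (11.5-fold) were the least even. Spleen was lowest for Npas2, Nr1d1 and Nr1d2, yet highest for Arntl and Cry1. Liver was lowest for Per3, Ciart, Dbp and Tef. In the fed order of Arntl, heart, muscle, white adipose tissue and liver each overlapped the next in their 95% counting intervals, as did kidney and brown adipose tissue, whereas spleen and lung stood above the rest. In that of Nr1d1, which runs from white adipose tissue through muscle, brown adipose tissue, lung, heart, liver and kidney to spleen, 0 of 7 neighbours overlapped. The tissue with the highest fed level depended on the scaling for 5 members: with TMM or DESeq2 factors it became muscle for Arntl, Cry1, Ciart, Nr1d1 and Tef. The folds and orders between fed tissues above, and which members were most even, are therefore given for library totals only.

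Ratios within 1 library do not depend on its scaling. The ratio of Arntl to Dbp counts, 2 genes of opposite phase, moved in opposite directions in muscle and liver. It was 0.591 in fed and 2.69 in fasting muscle, and 3.17 in fed and 0.398 in fasting liver. Brown adipose tissue went from 1.08 to 2.98 and white adipose tissue from 1.03 to 1.47. Heart (1.15 and 1.14), kidney (0.574 and 0.572), spleen (2.72 and 2.39) and lung (1.62 and 1.34) moved little. The ratio of Arntl to Nr1d1 went from 0.333 to 0.579 in muscle and from 0.561 to 0.277 in liver, the same directions as with Dbp. That of Arntl to Per2 was lower in fasting in every tissue, from 5.18 to 0.834 in heart as the widest change and from 3.38 to 2.95 in spleen as the narrowest. Whether muscle and liver differ in their response was not tested, since each contrast has 1 library a side.

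**Figure D5:**
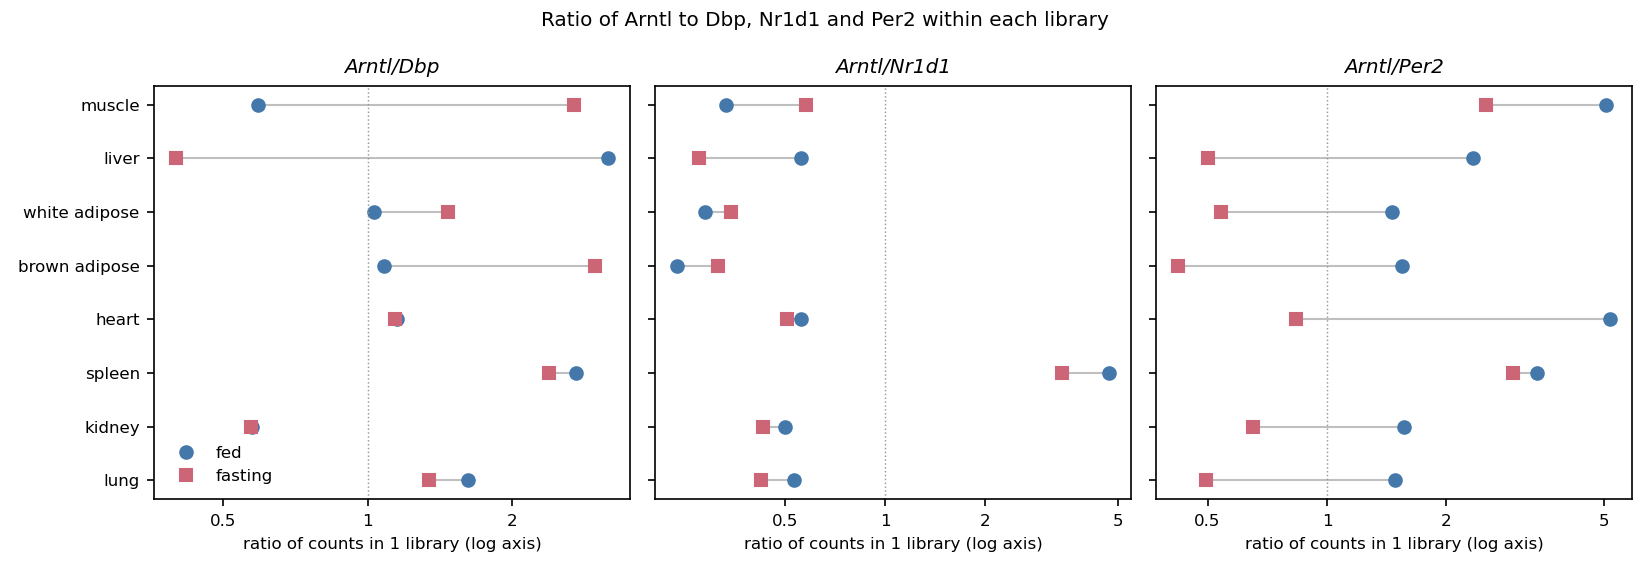
Ratio of Arntl counts to those of Dbp, Nr1d1 and Per2 within each library (log axis; circles fed, squares fasting, 1 library each), by tissue; the dotted line is a ratio of 1. The Arntl to Dbp ratio crosses 1 upward in muscle (0.591 to 2.69) and downward in liver (3.17 to 0.398), and the Arntl to Per2 ratio is lower in fasting in all 8 tissues.

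Between members, the log2 fold changes of the 8 tissues correlated with r from -0.92 to 0.85 over 45 pairs (median 0.15). These are descriptions over 8 points that share the same mice and, within a tissue, the same libraries. Arntl and Npas2 had 0.85, Npas2 and Cry1 0.82, and Arntl and Ciart -0.92. Without the liver these were 0.31, 0.30 and -0.47, so they rest largely on that tissue. Per3 and Tef had 0.85, and 0.77 without the liver. Arntl and Dbp went from -0.73 to -0.24. Dbp and Tef, the PAR bZIP pair, had 0.56.

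Outside the 10 members, the other genes of the clock were read from 3 further lists. Of 11 other clock factors, 1 rose over all tissues at an adjusted p under 0.05 and 0 fell, with a median log2 fold change of 0.18. That gene was Per1, the close relative of Per2, with 1.31 (standard error 0.16, edgeR adjusted p = 0.00534). It was called up in 7 tissues, from 9.51 to 39.1 CPM in liver as the largest and from 88.1 to 160 CPM in lung as the smallest of these, and spleen (41.5 and 57.7 CPM) was not called, as for Per2. Clock, the main partner of BMAL1, was called in 0 tissues (log2 fold changes of -0.45 in muscle to 0.16 in lung), with -0.03 in the fit (standard error 0.08, edgeR adjusted p = 0.865). Cry2, the second cryptochrome, rose in muscle from 25.0 to 71.5 CPM (1.52), where Cry1 fell, and in heart (0.68) and lung (0.66). Its fasting value was the lower one in white adipose tissue (90.1 and 67.0 CPM, -0.43) and brown adipose tissue (-0.24), neither of them called. In the fit Cry2 had 0.40 (standard error 0.20, edgeR adjusted p = 0.244). Within tissues, 22 of the 88 pairs of the list rose and 9 fell, where the shares of all genes with a count ran from 2.31% to 13.2% rising and from 1.62% to 9.52% falling between tissues. Among genes at 1 CPM or more in either library these shares were 3.62% to 19.8% and 2.33% to 16.4%.

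Among 9 genes that control the turnover of clock proteins (kinases, ubiquitin ligases and a ubiquitin protease), 0 passed the adjusted threshold in either direction in edgeR. At an unadjusted p under 0.05 there were 3, all higher in fasting, the casein kinases Csnk1d and Csnk1e and the protease Usp2, against the 10.6% of all genes given above. Within tissues 7 of 72 pairs rose and 2 fell, within the range of these shares of all genes in both directions. Of 8 genes under clock control, 3 rose and 0 fell, with a median of 0.50, where 2.31% of all genes in the fit rose and 2.08% fell. Within tissues 32 of the 64 pairs rose and 2 fell, to be read against the same shares. Tsc22d3, the glucocorticoid-induced leucine zipper, had 1.30 (edgeR adjusted p = 0.00318) and was called up in 8 tissues. Klf9, a Krüppel-like factor also induced by glucocorticoids, had 0.78 (adjusted p = 0.0154 in edgeR) and Wee1, a kinase that holds back mitosis, 0.74 (0.0159), and each was called up in 6. Klf9 in liver (219 and 217 CPM) was one of the exceptions. Per2 thus had Per1, Tsc22d3, Klf9 and Wee1 beside it among the genes past the threshold in all of these lists, together with Tef.

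The genes whose responses were most like those of Arntl and Dbp were sought among the 10792 genes at 1 CPM or more in all libraries, by the Pearson correlation of the log2 fold changes over 8 tissues. For Arntl they were Elp4 (r = 0.977), Hnrnpa2b1 (0.974) and Ext2 (0.968), whose liver values were -0.88, -0.54 and -0.49 against -1.25 for Arntl. For Dbp they were Ss18l2 (0.968), Nubp1 (0.955) and Hykk (0.953), with -0.84, -1.02 and -0.85 in muscle and 0.41, 0.23 and 0.88 in liver. In liver the genes like Arntl moved less than Arntl, and in muscle and liver those like Dbp moved less than Dbp. Such values come from picking the highest of many genes over few points, and are a description only.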

How the data were processed

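The authors sequenced strand-specific TruSeq libraries as paired-end reads of 100 bases, trimmed them with fastp 0.23.2, used HISAT2 2.2.1.0 for alignment to GRCm38 and counted genes of GENCODE release M24 with featureCounts (Subread 2.0). The deposited values are raw counts per gene, with each gene's exon length as an other column. Whether reads or pairs were counted, and the strand setting, is not given in the sources used here. Symbols came from an older release of that build through the identifier (55144 of 55385 matched). Counts were divided by library totals (14245178 to 36069968) to give CPM. Fisher's exact test, two-sided, was run within tissues (scipy 1.17.1), and edgeR 4.0.16 (R 4.3.3; TMM, filterByExpr, tissue block, quasi-likelihood test, coefficient of variation 0.1956) across tissues, with p-values adjusted over 17296 genes. Both steps were tested on simulated data. Fold intervals and floors (95%, 3 counts) cover counting error only, since each group has 1 library. Reads without molecular identifiers can be copies, and the intervals do not allow for this.

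The members and all lists were chosen with earlier results of these data known. Named beside the 10 members were Clock, Per1 and Cry2, listed clock genes past the adjusted threshold or called one way in 5 or more tissues, the 3 genes most like Arntl and like Dbp, and genes that overlap a member. Csnk1d, Csnk1e and Usp2 were named after their values were seen. The alternatives were another pseudocount, TMM and DESeq2 1.42.0 factors, totals without the 10 highest genes, a filter at 1 CPM, adjusted p-values, a log2 fold change above 1, an exact test with an assumed variation, DESeq2's Wald test, and fits without filter, block or single tissues. Leaving out white adipose tissue, spleen and lung together was added after seeing the data. No column went unused.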

Additional observations from a re-analysis of the deposited data

Results flagged for a closer look

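In 3 members, tissues were called in opposite directions. Npas2 had a log2 fold change of 0.88 in white adipose tissue and -2.79 in liver, Cry1 had 0.58 and -1.32 in the same tissues, and Dbp had 1.75 in liver and -2.31 in muscle. Each contrast has 1 library a side, so these differences between tissues were not tested. The Cry1 value in white adipose tissue was not called with TMM factors or with DESeq2's size factors.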

How the results depend on the processing

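Within tissues, the 20 rises and 11 falls became 22 and 9 with TMM factors or DESeq2's size factors, which shifted liver values by 0.12 and white adipose values by -0.11 with TMM and by at most 0.08 elsewhere. Both scalings lost Arntl and Dbp in heart and Cry1 in muscle and white adipose tissue, and gained Ciart in heart and kidney and Nr1d1 in white adipose tissue and spleen. A log2 fold change above 1 left 9 rises and 5 falls. When variation between pools was assumed in an exact test of edgeR (coefficient 0.2 or 0.4), 8 rises and 5 falls were left at 0.2, and 1 rise and 2 falls at 0.4 (Ciart and Npas2 in liver, Dbp in muscle). A pseudocount of 1 CPM lost Cry1 in muscle and Dbp in heart, and the filter at 1 CPM, adjusted p-values and totals without the 10 highest genes lost no call. In the 5 tissues other than white adipose tissue, spleen and lung there were 14 rises and 10 falls. Across tissues, 2 members rose in the main setting. Leaving out each tissue in turn gave 1 to 2, since Tef was lost except without white adipose tissue. Without both adipose tissues, or without white adipose tissue, spleen and lung, 1 rose (Per2). Without the tissue block 0 rose, because differences between tissues then enter the error. Per2 was past the threshold in 15 of 16 alternatives, with log2 fold changes of 1.12 to 1.42 and adjusted p-values from 1.49e-07 (DESeq2) to 1 (no tissue block). Tef was past it in 6 of 16, with 0.49 to 0.67 and 0.00327 to 1 in the same alternatives. No called value changed sign. With TMM factors or DESeq2's size factors, 5 of the 10 members kept the tissue of their highest fed level. With 1 library per group, variation between mice cannot be separated from the effect of fasting, and for Ciart, at 10 to 20 counts in fed liver and both adipose tissues, depth limits the precision. The fed and fasting libraries were paired by tissue in the fit across tissues, and the labels carry no replicate numbers for a further pairing.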
